A study of Mus musculus with 16 samples.

Results

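The MHC class II genes are described here through 7 genes: H2-Aa, H2-Ab1, H2-Eb1, Cd74, H2-DMa, H2-DMb1 and Ciita, out of 20725 genes measured in alveolar epithelial type II (AT2) cells of newborn mice. They were chosen by annotated gene symbol, and were proposed with the levels of several of them under hyperoxia already known. For each gene the feature with the highest mean over the 16 single-colour Agilent arrays stood for the gene. The 7 genes had 8 features, 1 each except H2-Ab1, which had 2. AT2 cells make surfactant and can act as stem cells of the alveolus. The 4 groups were 2 samples of Fgf10+/- pups in hyperoxia, 6 of wild-type pups in hyperoxia, 4 of Fgf10+/- pups in normoxia and 4 of wild-type pups in normoxia. All pups were at postnatal day 3. Hyperoxia was 85% oxygen in a chamber from postnatal day 0, and Fgf10+/- pups carried 1 disrupted copy of the gene for fibroblast growth factor 10, a growth factor of the lung mesenchyme.

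MHC class II molecules are pairs of an alpha and a beta chain that show peptides from the endosome to CD4+ T cells. The invariant chain, encoded by Cd74, holds the new pair and carries it to the endosome, where the H2-DM dimer helps to exchange the last piece of the invariant chain for a peptide. Ciita encodes the coactivator on which transcription of these genes depends, and it acts through factors already bound to their promoters. B cells, dendritic cells and many macrophages express class II genes, and AT2 cells are among the few epithelial cells that do so without an infection. A sample of AT2 cells can therefore take class II RNA from AT2 cells or from leukocytes beside them.

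The series text gives 4 samples per group, while the sample titles give the 2, 6, 4 and 4 above, and the titles were followed. No source used here says whether samples came from separate animals, whether pups were pooled, which strain was used, how the cells were isolated or where the Fgf10 allele was disrupted, so p-values measure only the spread between these samples. The AT2 label was checked on 10 AT2 marker genes, whose mean log2 intensity lay between 11.06 and 12.38 on the 16 arrays, and Sftpc, the surfactant protein C gene, was near the top of the scale on every array. The lowest AT2 mean, 11.06, was that of Fgf10+/- hyperoxia replicate 2, which also had the lowest Cd74 level, 7.42, while replicate 1 had an AT2 mean of 12.23; the part of this in the class II levels was not tested. The Fgf10 feature was low, at 5.07 ± 0.43 in Fgf10+/- hyperoxia, 5.13 ± 0.28 in wild-type hyperoxia, 4.42 ± 0.36 in Fgf10+/- normoxia and 4.74 ± 0.77 in wild-type normoxia (SD, n = 2, 6, 4 and 4), and its ranges overlapped between the genotypes, so it did not check the genotype labels. Markers of thymocytes, immature T cells of the thymus, stood high in 4 normoxia libraries, namely Fgf10+/- normoxia replicates 1, 2 and 4 and wild-type normoxia replicate 4. Their mean thymocyte marker level was 5.54 to 6.43, against 4.01 to 4.75 on the other 12 arrays. Some results of the 7 genes and of the pathway genes are also given without these libraries. No such result is given for the cell type markers, so whether their calls depend on these libraries was not tested.

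The promoters of class II genes share a block of sequence to which the factors that hold Ciita bind, the X and Y boxes. Promoter sequences of RefSeq on the GRCm38.p6 build, 250 bases before to 50 bases after the start, were matched for 4 of the 7 genes by symbol, and H2-Ab1, Cd74 and Ciita are named only. The 3 below are shown because they carry that block and because the 3 genes were lower in hyperoxia. The capitals mark GNAACT, in the X box region, and TGATTGG, the Y box, whose ATTGG is the reverse complement of the CCAAT letters read by the factor NF-Y. H2-Aa lies at chr17:34287774-34288073 on the minus strand, H2-Eb1 at chr17:34305617-34305916 on the plus strand and H2-DMb1 at chr17:34152941-34153240 on the plus strand.
H2-Aa: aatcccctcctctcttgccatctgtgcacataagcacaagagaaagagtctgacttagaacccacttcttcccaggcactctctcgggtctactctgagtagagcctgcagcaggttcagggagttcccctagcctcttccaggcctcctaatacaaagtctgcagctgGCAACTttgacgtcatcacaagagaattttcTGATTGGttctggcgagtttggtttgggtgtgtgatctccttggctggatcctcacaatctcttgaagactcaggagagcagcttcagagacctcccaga
H2-Eb1: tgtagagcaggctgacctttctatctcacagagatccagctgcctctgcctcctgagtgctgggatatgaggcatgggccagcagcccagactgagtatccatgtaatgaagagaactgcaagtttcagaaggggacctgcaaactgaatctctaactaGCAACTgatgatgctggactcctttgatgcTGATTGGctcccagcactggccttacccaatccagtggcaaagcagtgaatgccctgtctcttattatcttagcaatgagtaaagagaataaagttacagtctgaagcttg
H2-DMb1: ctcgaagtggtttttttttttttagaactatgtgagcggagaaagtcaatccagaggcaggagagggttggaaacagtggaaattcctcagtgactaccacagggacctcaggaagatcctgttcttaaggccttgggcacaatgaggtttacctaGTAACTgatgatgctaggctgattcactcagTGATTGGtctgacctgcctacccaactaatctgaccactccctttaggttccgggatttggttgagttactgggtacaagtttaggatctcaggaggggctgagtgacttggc

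In H2-Aa, H2-Eb1 and H2-DMb1 the bases between GNAACT and TGATTGG numbered 25, 24 and 25, and TGATTGG began 50, 61 and 63 bases before the start. Neither of the 2 promoter windows of H2-DMa held TGATTGG, which says only that these letters were not in those windows. Among 32851 promoter windows of the same length, searched on both strands, 7.82% held TGATTGG and 42.8% held GNAACT. The letters ATTGG, which lie inside TGATTGG, were in 37.4%. GNAACT before TGATTGG on the same strand was in 1.14% at any spacing and in 0.201% with 15 to 35 bases between. The letters and the spacing limits were chosen after these promoters had been read, so the shares are a description.

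The surface chains H2-Aa, H2-Ab1 and H2-Eb1 were lowest in Fgf10+/- hyperoxia, next in wild-type hyperoxia and highest in the normoxia groups. All values are log2 intensities as deposited, and 1 unit is a doubling. H2-Ab1, the beta chain of the I-A molecule, was 7.75 and 8.16 in Fgf10+/- hyperoxia. In wild-type hyperoxia its lowest, median and highest values were 8.54, 8.73 and 9.16. It was 10.52, 10.48, 10.64 and 10.71 in Fgf10+/- normoxia, against 9.57, 10.15, 9.92 and 10.26 in wild-type normoxia. The 4 groups of H2-Ab1 did not overlap at any step of that order. The second H2-Ab1 feature kept the order, with means of 7.35 ± 0.35 in Fgf10+/- hyperoxia, 8.43 ± 0.30 in wild-type hyperoxia, 10.13 ± 0.13 in Fgf10+/- normoxia and 9.35 ± 0.31 in wild-type normoxia (SD, n = 2, 6, 4 and 4). In bulk samples such as these, fewer cells of a type and less RNA per cell cannot be told apart.

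H2-Eb1, the beta chain of the I-E molecule, was 7.54 and 7.58 in Fgf10+/- hyperoxia. Its lowest, median and highest values in wild-type hyperoxia were 8.21, 8.49 and 9.15. It was 9.97, 10.02, 9.83 and 10.03 in Fgf10+/- normoxia, against 8.56, 9.79, 9.69 and 9.72 in wild-type normoxia. The wild-type groups overlapped only through wild-type normoxia replicate 1, at 8.56, while the Fgf10+/- hyperoxia pair lay under all other samples. H2-Aa, the alpha chain of I-A, was 4.65 and 4.81 in Fgf10+/- hyperoxia. Its lowest, median and highest values in wild-type hyperoxia were 5.35, 5.77 and 6.59. It was 5.84, 6.52, 6.82 and 7.01 in Fgf10+/- normoxia, against 7.18, 6.75, 5.72 and 6.72 in wild-type normoxia. The Fgf10+/- hyperoxia pair of H2-Aa stood apart, and the other 3 groups overlapped. H2-Ea, the alpha chain that pairs with H2-Eb1, was dim on most arrays, with group means of 3.22 ± 0.36 in Fgf10+/- hyperoxia, 3.90 ± 0.40 in wild-type hyperoxia, 3.44 ± 0.55 in Fgf10+/- normoxia and 3.76 ± 0.64 in wild-type normoxia (SD, n = 2, 6, 4 and 4), below the median of all values, 4.34.

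**Figure D1:**
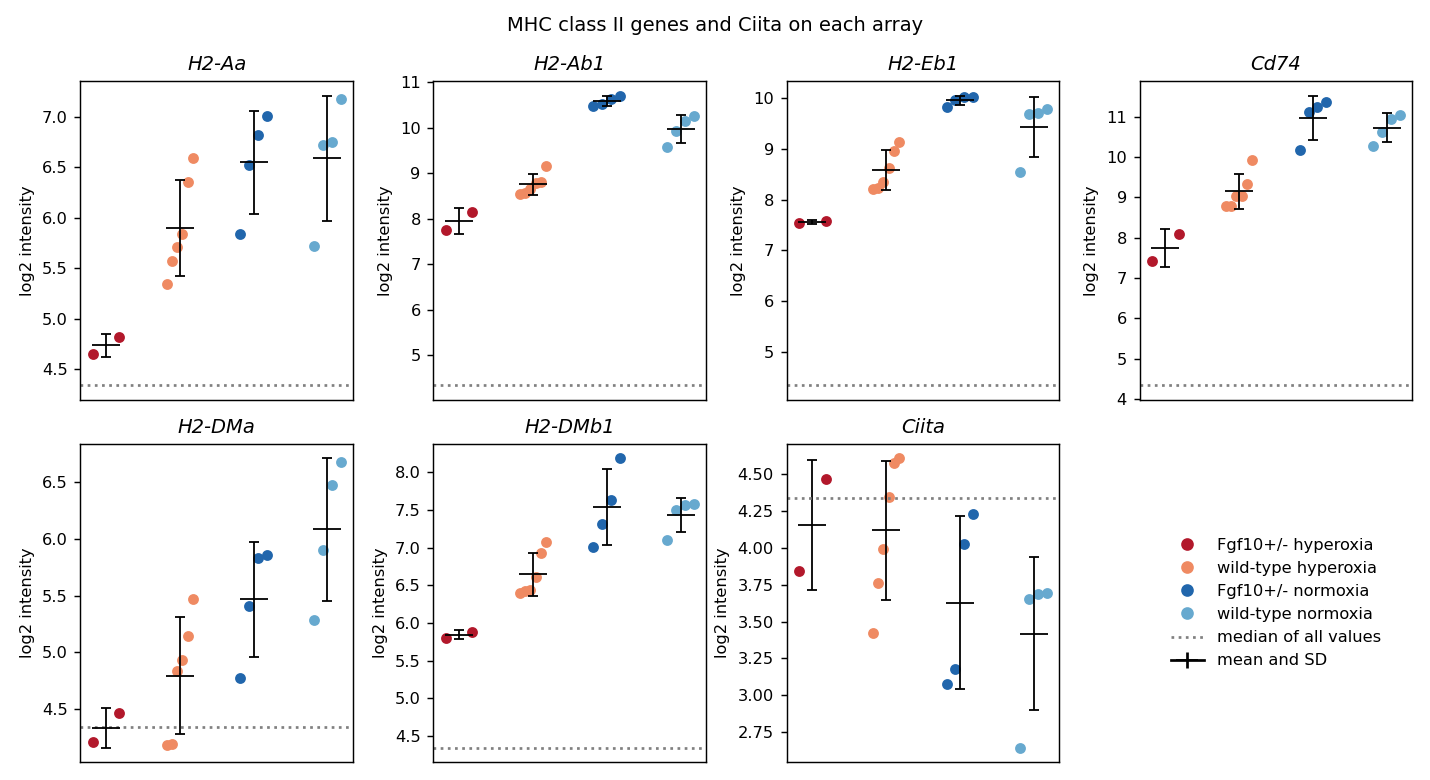
Log2 intensity of H2-Aa, H2-Ab1, H2-Eb1, Cd74, H2-DMa, H2-DMb1 and Ciita on each of the 16 arrays, 1 panel per gene, with the groups from left to right Fgf10+/- hyperoxia, wild-type hyperoxia, Fgf10+/- normoxia and wild-type normoxia. Points are samples, black bars are the group mean and SD, and the dotted line is the median of all values, 4.34; Cd74 runs from 7.42 to 11.37 and lies lowest in Fgf10+/- hyperoxia, while 13 of 16 Ciita values lie under the dotted line.

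Cd74 had the widest range of the 7 genes, 3.96 log2 units over the 16 arrays. It was 8.08 and 7.42 in Fgf10+/- hyperoxia. In wild-type hyperoxia its lowest, median and highest values were 8.78, 9.03 and 9.93. It was 11.24, 10.16, 11.37 and 11.11 in Fgf10+/- normoxia, against 10.63, 10.95, 11.05 and 10.27 in wild-type normoxia. The highest hyperoxia sample of Cd74, wild-type replicate 3 at 9.93, lay under the lowest normoxia sample, at 10.16, and the normoxia groups overlapped.

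The H2-DM genes were dimmer. H2-DMb1, the beta chain of the peptide exchange dimer, was 5.80 and 5.88 in Fgf10+/- hyperoxia. Its lowest, median and highest values in wild-type hyperoxia were 6.39, 6.52 and 7.07. It was 7.32, 7.01, 7.63 and 8.19 in Fgf10+/- normoxia, against 7.58, 7.57, 7.50 and 7.10 in wild-type normoxia. Within each genotype the H2-DMb1 values did not overlap between hyperoxia and normoxia. H2-DMa, the alpha chain, was 4.21 and 4.46 in Fgf10+/- hyperoxia, and its lowest, median and highest values in wild-type hyperoxia were 4.19, 4.88 and 5.47. It was 4.77, 5.41, 5.86 and 5.83 in Fgf10+/- normoxia, against 5.90, 6.47, 5.28 and 6.68 in wild-type normoxia. H2-DMa lay under the median of all values on 3 of 16 arrays, all from hyperoxia, and neighbouring groups overlapped.

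Ciita did not run with the other 6 genes. It was 4.46 and 3.85 in Fgf10+/- hyperoxia, and its lowest, median and highest values in wild-type hyperoxia were 3.42, 4.17 and 4.61. It was 3.18, 4.23, 3.08 and 4.03 in Fgf10+/- normoxia, against 2.64, 3.68, 3.69 and 3.65 in wild-type normoxia. All neighbouring groups overlapped, and 13 of 16 values lay under the median of all values, so no fold is given. Its differences are plotted with those of the other genes and otherwise given only as a range over the alternatives.

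Fgf10+/- samples from hyperoxia had lower levels of 6 of the 7 genes than Fgf10+/- samples from normoxia. The members were chosen with this comparison known, so its differences are given as a description and without a test. The difference, hyperoxia minus normoxia, was -3.22 (SE 0.37) for Cd74, a 9.32-fold lower level, and -2.63 (SE 0.24) for H2-Ab1, a 6.21-fold lower level. It was -2.40 (SE 0.34) for H2-Eb1, -1.81 (SE 0.41) for H2-Aa, -1.69 (SE 0.30) for H2-DMb1 and -1.13 (SE 0.42) for H2-DMa. The median over the 7 genes was -1.81, beside -0.04 over all 20725 genes. Past the threshold were 5 of the 7, all lower, where limma passed 2.45% of all genes and 1.26% as lower, and nothing is read from this count. It was 2 of 7 without the 4 libraries high in thymocyte markers, which leaves 1 Fgf10+/- normoxia sample, whose spread is then assumed to equal that of the other groups. The groups did not overlap for 6 genes, as for 13.6% of all genes, a high share because only 2 samples stand on one side.

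Wild-type samples from hyperoxia had lower levels of the same 6 genes than wild-type samples from normoxia, and the members were chosen with this comparison known as well. The difference was -1.57 (SE 0.28) for Cd74, a 2.97-fold lower level, and -1.22 (SE 0.18) for H2-Ab1, a 2.33-fold lower level. It was -1.29 (SE 0.32) for H2-DMa, -0.85 (SE 0.25) for H2-Eb1, -0.79 (SE 0.22) for H2-DMb1 and -0.69 (SE 0.31) for H2-Aa. The median over the 7 genes was -0.85, beside -0.08 over all genes. H2-Ab1, Cd74 and H2-DMa, 3 of the 7, were past the threshold and lower, where limma passed 3.13% of all genes in either direction and 1.36% as lower, and again nothing is read from the count. H2-DMa was past it in 4 of 10 fits that left out 1 sample. Its difference was -1.09 without the 4 libraries high in thymocyte markers. Without wild-type normoxia replicate 1, H2-DMa was not past it and H2-Eb1 was. The hyperoxia and normoxia samples did not overlap for 3 genes, all lower, as for 4.02% of all genes.

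**Figure D2:**
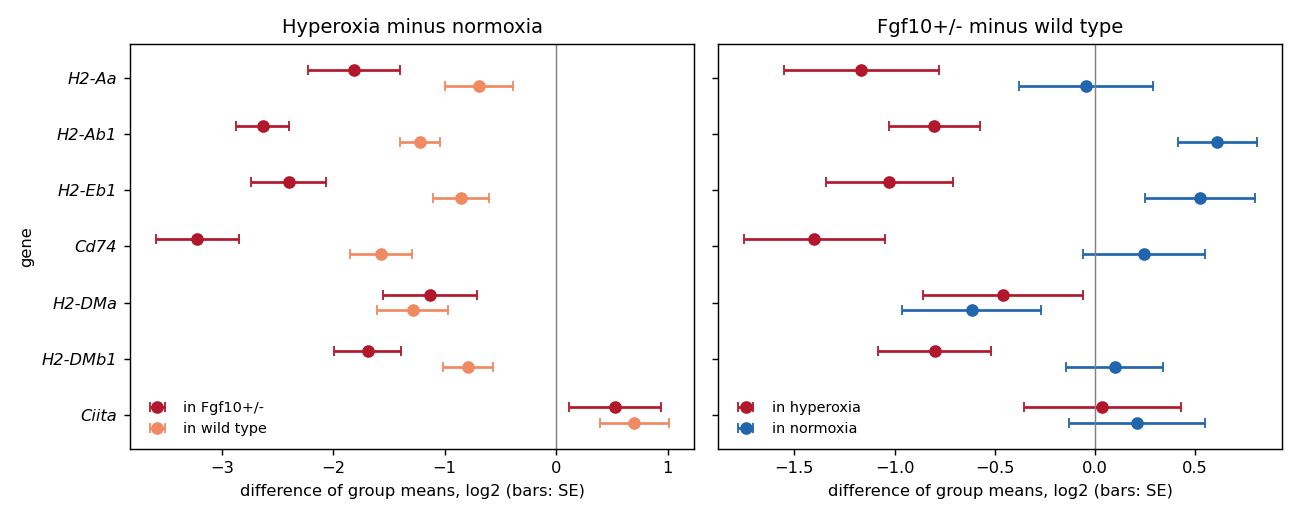
Difference of group means in log2 units for the 7 genes, with bars for the SE, as hyperoxia minus normoxia in Fgf10+/- and in wild type (left panel) and as Fgf10+/- minus wild type in hyperoxia and in normoxia (right panel). Under hyperoxia, 6 of 7 genes lie left of 0 in both genotypes, with Cd74 at -3.22 in Fgf10+/- and -1.57 in wild type, while the genotype difference lies left of 0 in hyperoxia for those 6 genes and on both sides of 0 in normoxia; Ciita is a dim probe.

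Whether the hyperoxia difference itself differed between the genotypes was asked with the interaction, the difference in Fgf10+/- minus that in wild type. It is built from the comparisons by which the genes were proposed, so it is not independent of that choice. By limma with Benjamini-Hochberg adjustment over all genes, none of the 7 passed, where 0.00965% of all genes did, that is 2 genes. The interaction was -1.65 for Cd74 (95% interval -2.63 to -0.66, limma adjusted p = 0.988), -1.55 for H2-Eb1 (-2.44 to -0.66, limma adjusted p = 0.988) and -1.41 for H2-Ab1 (-2.05 to -0.78, limma adjusted p = 0.595). It was -1.12 for H2-Aa, -0.90 for H2-DMb1 and 0.16 for H2-DMa. At an unadjusted p under 0.05 stood 5 of the 7, as did 4.11% of all genes, and 6 of the 7 were negative, beside 46.2% of all genes. With Cd79a as a covariate the interaction of Cd74 was -1.04 and that of H2-Eb1 was -1.11. The 2 samples of Fgf10+/- hyperoxia limit this comparison.

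In hyperoxia, Fgf10+/- samples had lower levels than wild-type samples in 6 of the 7 genes, and no difference passed the adjusted threshold. These samples also entered the comparisons by which the genes were proposed, so this comparison is not independent of that choice. The difference, Fgf10+/- minus wild type, was -1.40 for Cd74 (95% interval -2.15 to -0.66, limma adjusted p = 0.746), -1.17 for H2-Aa (-1.99 to -0.35, limma adjusted p = 0.982) and -1.03 for H2-Eb1 (-1.70 to -0.36, limma adjusted p = 0.946). It was -0.80 for H2-Ab1 (-1.28 to -0.32, limma adjusted p = 0.938), -0.80 for H2-DMb1 and -0.46 for H2-DMa. By limma 0% of all 20725 genes passed here. At an unadjusted p under 0.05 stood 5 of the 7 genes, as did 4.37% of all genes, and for the same 5, H2-Aa, H2-Ab1, H2-Eb1, Cd74 and H2-DMb1, the pair of Fgf10+/- samples lay below all 6 wild-type samples, as for 3.31% of all genes. None of the 7 lay above, as 3.67% of all genes did, and 47.3% of all genes had a negative difference. The leukocyte markers did not all move alike in this comparison, and none passed the threshold. Cd79a differed by 0.17, and 4 of 6 B cell and 4 of 8 dendritic cell markers had a negative difference. Ptprc, the CD45 gene carried by all leukocytes, differed by -1.86 (limma adjusted p = 1.00), and all 7 pan-leukocyte markers had a negative difference, with 0 past the threshold and 4 at an unadjusted p under 0.05. Their mean level was 6.35 to 6.59 in Fgf10+/- hyperoxia, against 6.66 to 8.14 in wild-type hyperoxia. With the Ptprc level as a covariate the differences were -1.98 for Cd74, -1.07 for H2-Aa, -1.09 for H2-Eb1 and -0.85 for H2-Ab1. With Itgax, itself lower by 0.87 log2 units here, they were -1.81 for Cd74, -0.76 (SE 0.49) for H2-Aa, -0.96 for H2-Eb1 and -0.81 for H2-Ab1. With Cd79a they were -1.30 for Cd74, -1.16 for H2-Aa, -0.95 for H2-Eb1 and -0.775 for H2-Ab1. The macrophage marker means did not overlap, at 5.67 to 5.89 in Fgf10+/- hyperoxia, against 6.12 to 6.85 in wild-type hyperoxia, and their part in the class II levels was not tested.

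In normoxia no genotype difference of the 7 genes passed the threshold, and the signs were mixed. These normoxia samples, too, entered the comparisons by which the genes were proposed. H2-Ab1 was higher in Fgf10+/- samples by 0.61 (95% interval 0.20 to 1.03, limma adjusted p = 0.603) and H2-Eb1 by 0.52 (-0.06 to 1.10, limma adjusted p = 0.855), and for both the 4 Fgf10+/- samples lay above the 4 wild-type samples, as for 1.42% of all genes. Cd74 differed by 0.25, H2-DMb1 by 0.10, H2-Aa by -0.04 and H2-DMa by -0.61. By limma 0 of the 7 genes passed, where 0.00965% of all genes did, and 1, H2-Ab1, had an unadjusted p under 0.05, as did 6.03% of all genes. Of the 7 genes 2 were negative, beside 52.1% of all genes. Without wild-type normoxia replicate 1 the H2-Eb1 difference was 0.23, and with Cd79a as a covariate it was 0.16. The Cd74 difference turned to -0.26 with Cd79a and to -0.29 with Itgax as a covariate. The markers of antigen-presenting leukocytes stood lower in the Fgf10+/- samples. Itgax, the CD11c gene of dendritic cells and alveolar macrophages, differed by -1.13 (limma adjusted p = 0.371) and Cd79a, part of the B cell receptor, by -0.83 (limma adjusted p = 0.677). The second, dimmer Cd79a feature differed by -0.04 here, and its hyperoxia differences, -0.16 in Fgf10+/- and 0.08 in wild type, had the opposite sign to the 0.58 and -0.42 of the brighter one, on which the Cd79a relations and covariate fits rest. Of the macrophage markers 6 of 8 had a negative difference, of the B cell markers 5 of 6 and of the dendritic cell markers 7 of 8, with none past the threshold.

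Across the arrays of 1 oxygen condition, no class II gene followed a leukocyte marker past the adjusted threshold. Pearson's r of each of the 7 genes with Ptprc, Cd79a and Itgax was computed over the 8 hyperoxia and, apart from them, the 8 normoxia samples, 42 relations in all with exact two-sided permutation tests over 40320 pairings. The smallest adjusted p was 0.131, and 4 relations had an unadjusted p under 0.05. The lowest r was that of H2-Ab1 with Cd79a in normoxia, -0.88 (exact permutation p = 0.0045, adjusted p = 0.131, n = 8), with a Spearman's rho of -0.90 (exact permutation p = 0.0046, adjusted p = 0.192). Without the 2 samples farthest from the median of Cd79a, r was -0.59. H2-Eb1 with Cd79a in normoxia had r = -0.86 (exact permutation p = 0.0067, n = 8) and rho = -0.83 (exact permutation p = 0.0154), and r was -0.51 without the 2 farthest samples. Cd74 with Ptprc in normoxia had r = -0.83 (exact permutation p = 0.0094, n = 8) and rho = -0.83 (exact permutation p = 0.0154), and r was -0.89 without the 2 farthest samples. These 3 relations ran downward, so samples with more of the marker had less of the class II gene. Each r over the 8 samples takes in the difference between the genotypes. Taken as deviations from the mean of each genotype, the 3 r were -0.68, -0.79 and -0.81 in the same order. Only H2-DMa ran upward at an unadjusted p under 0.05, with Itgax in normoxia at r = 0.76 (exact permutation p = 0.029, adjusted p = 0.304, n = 8) and rho = 0.76 (exact permutation p = 0.0368), and r was 0.48 without the 2 farthest samples. As deviations from the genotype means this r was 0.72.

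In hyperoxia all 7 genes had a positive r with Ptprc, between 0.20 and 0.69, and all 7 with Itgax, between 0.02 and 0.62, none past the threshold. H2-Ab1 with Ptprc had the highest, r = 0.69 (exact permutation p = 0.0541, adjusted p = 0.403, n = 8), and rho = 0.74 (exact permutation p = 0.0458, adjusted p = 0.275), and r was 0.36 without the 2 farthest samples. Taken as deviations from the mean of each genotype, r was 0.13, and for Cd74 with Ptprc it was -0.75. With Cd79a in hyperoxia 6 of the 7 genes had a negative r and Ciita had 0.62.

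**Figure D3:**
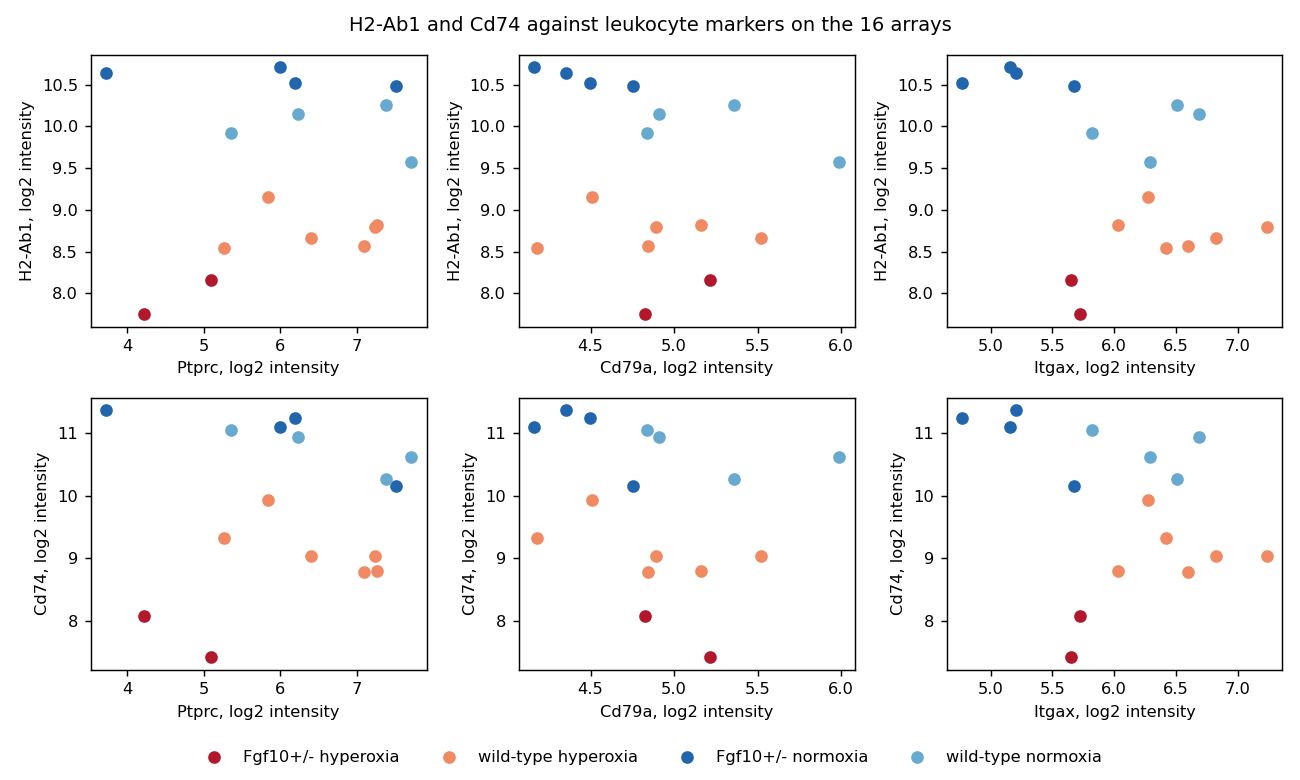
Log2 intensity of H2-Ab1 (top row) and Cd74 (bottom row) against Ptprc, Cd79a and Itgax, 1 point per array, coloured by group. At like marker levels the 8 hyperoxia samples lie below the 8 normoxia samples in all 6 panels, and Fgf10+/- normoxia replicate 3, with the lowest Ptprc level, 3.72, has H2-Ab1 at 10.64 and Cd74 at 11.37.

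The arrays with the lowest and highest pan-leukocyte means are given as values. The normoxia array with the lowest pan-leukocyte marker mean, 6.21, was Fgf10+/- normoxia replicate 3, on which Ptprc was 3.72. It had the highest Cd74 level of all 16 arrays, 11.37, and H2-Ab1 at 10.64. The hyperoxia array with the highest pan-leukocyte mean, 8.14, was wild-type hyperoxia replicate 1, with Ptprc at 7.24, H2-Ab1 at 8.79 and Cd74 at 9.03. These arrays differ in genotype as well as in oxygen. Fgf10+/- hyperoxia replicate 1, with the lowest pan-leukocyte mean of its condition, 6.35, had the lowest H2-Ab1 level, 7.75.

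The hyperoxia differences of the brighter genes were also negative when a marker level was held constant in the fit. In Fgf10+/- the difference of H2-Ab1 was -2.66 with Ptprc, -2.55 with Cd79a, -2.63 with Itgax and -2.56 with the mean of the thymocyte markers in the fit. For Cd74 the values in the same order were -3.60, -2.87, -2.99 and -3.73. For H2-Eb1 in Fgf10+/- the lowest size was -2.15, with Cd79a. In wild type the difference of H2-Ab1 was -1.23, -1.29, -1.22 and -1.17, and that of Cd74 was -1.62, -1.83, -1.46 and -1.92. These fits hold the measured marker constant and do not measure the number of leukocytes. Each fit takes a mean for each group and a single slope for all groups. As deviations from genotype means, r of H2-Ab1 with Ptprc was 0.13 in hyperoxia and -0.28 in normoxia.

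**Figure D4:**
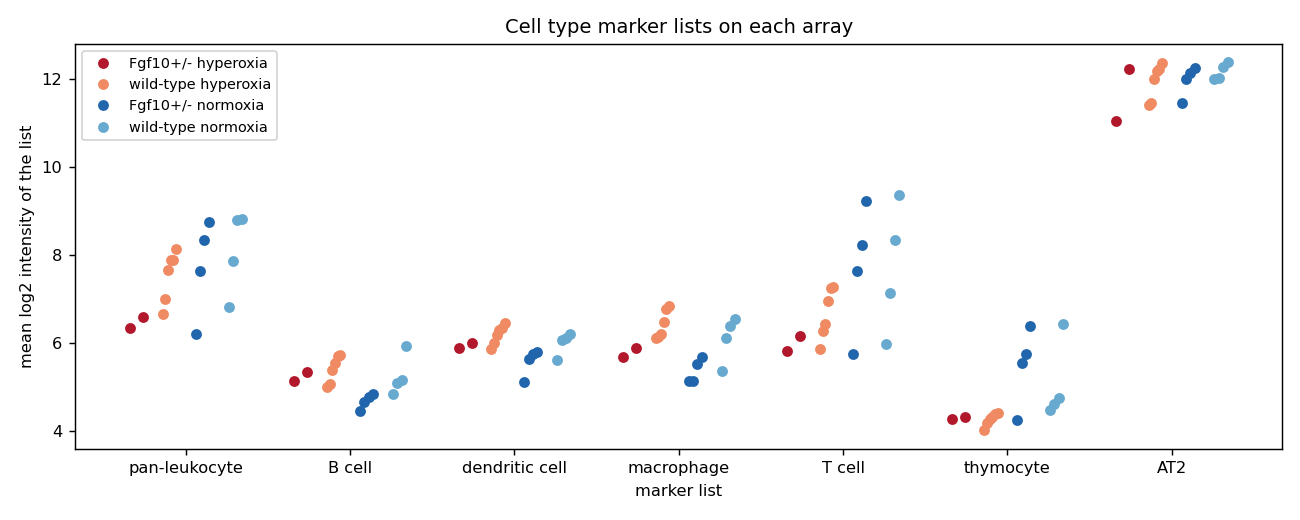
Mean log2 intensity of the markers of 7 cell types on each array, with the groups of each list from left to right Fgf10+/- hyperoxia, wild-type hyperoxia, Fgf10+/- normoxia and wild-type normoxia. The T cell list spreads most in the normoxia groups, with an SD of 1.46 in Fgf10+/- and 1.47 in wild type, and the pan-leukocyte list lies lowest in Fgf10+/- hyperoxia (6.35 and 6.59) and in Fgf10+/- normoxia replicate 3 (6.21).

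The marker lists as a whole moved as follows between hyperoxia and normoxia. Pan-leukocyte marker means were 6.35 to 6.59 in Fgf10+/- hyperoxia, 6.66 to 8.14 in wild-type hyperoxia, 6.21 to 8.74 in Fgf10+/- normoxia and 6.81 to 8.82 in wild-type normoxia. T cell marker means were 5.82 to 6.16 in Fgf10+/- hyperoxia, 5.86 to 7.27 in wild-type hyperoxia, 5.75 to 9.23 in Fgf10+/- normoxia and 5.97 to 9.36 in wild-type normoxia. T cells of mice carry little class II RNA as a rule. B cell marker means were 5.14 to 5.34 in Fgf10+/- hyperoxia and 5.00 to 5.73 in wild-type hyperoxia, against 4.46 to 4.85 in Fgf10+/- normoxia and 4.84 to 5.94 in wild-type normoxia. Dendritic cell marker means were 5.88 to 6.00 and macrophage means 5.67 to 5.89 in Fgf10+/- hyperoxia, against 5.11 to 5.78 and 5.13 to 5.69 in Fgf10+/- normoxia. In wild type the dendritic cell means were 5.85 to 6.46 in hyperoxia, against 5.62 to 6.20 in normoxia, and the macrophage means were 6.12 to 6.85 in hyperoxia, against 5.37 to 6.56 in normoxia. So in Fgf10+/- the B cell list was higher in hyperoxia on every array, and in wild type all 3 lists overlapped between hyperoxia and normoxia. Of the 6 B cell markers 4 had a positive and 2 a negative difference in Fgf10+/-. Cd22 had the largest, 1.51, on 1 of its 2 features, while the other, dim one differed by -0.28, and the list was not averaged without Cd22. The dendritic cell list of Fgf10+/- did not overlap either, but that rested on Siglech: the other 7 markers averaged 4.65 to 4.81 in Fgf10+/- hyperoxia, against 4.10 to 4.87 in Fgf10+/- normoxia, an average taken after the data had been seen. Of these 3 lists, Siglech alone passed the threshold between hyperoxia and normoxia in Fgf10+/-, and Siglech and Cd22 did in wild type. Siglech, a marker of plasmacytoid dendritic cells, rose by 2.30 in Fgf10+/- and by 2.20 in wild type (limma adjusted p = 0.0028 and 0.000126). This was on 1 of its 3 features, and the other 2 averaged at most 4.35. That 1 feature averaged 14.41 in Fgf10+/- hyperoxia and 14.17 in wild-type hyperoxia, against 12.10 in Fgf10+/- normoxia and 11.97 in wild-type normoxia. Whether its annotation is right was not tested, so the rise is that of a feature annotated as Siglech. Cd22, a B cell receptor, rose by 1.65 in wild type (limma adjusted p = 0.00677) on 1 of 2 features, while the other, dim one differed by -0.11. No list had a marker that was under the median of all values on all 16 arrays, and 5 of 8 dendritic cell markers and 2 of 6 B cell markers were dim on average. The part of these cells in the class II levels was not tested beyond the fits above.

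Of 44 further genes, written from knowledge of the pathway, 1 passed the test in Fgf10+/- under hyperoxia, where 1.18% of all genes passed as higher, and 3 passed in wild type, where 1.77% did. All of these were higher in hyperoxia, and 0 passed as lower. Among those that did not pass, H2-Oa, a chain of the dimer that holds back H2-DM, and Socs1, an inhibitor of interferon signalling, were picked out after their values had been seen. H2-Oa differed by -0.83 in Fgf10+/- and by -0.86 in wild type (limma adjusted p = 0.379 and 0.183), and Socs1 by -0.88 and -0.97 (limma adjusted p = 0.345 and 0.133). The median difference of the 44 genes was 0.09 in Fgf10+/- and -0.06 in wild type, beside -0.04 and -0.08 over all genes. Between the genotypes 0 of 44 passed by limma in hyperoxia, in normoxia and in the interaction, with 5, 5 and 3 at an unadjusted p under 0.05.

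Of 14 genes for other class II chains, endosomal proteases and turnover, 1 passed as higher with hyperoxia in Fgf10+/- and 2 did in wild type. Of all genes 1.18% passed as higher in Fgf10+/- and 1.77% in wild type. In each genotype 4 of the 14 had a negative difference, beside 53.4% of all genes in Fgf10+/- and 58.3% in wild type. Lgmn, the endosomal protease legumain, averaged 10.62 ± 0.19 in wild-type hyperoxia (SD, n = 6) and 9.88 ± 0.22 in wild-type normoxia (SD, n = 4), and rose by 0.74 (limma adjusted p = 0.0465). Its call was lost in 9 of 10 fits that left out 1 sample. Marchf1, an E3 ubiquitin ligase that takes class II molecules from the cell surface in dendritic cells and B cells, was 11.62 and 10.89 in Fgf10+/- hyperoxia, and its lowest, median and highest values in wild-type hyperoxia were 10.13, 11.57 and 12.58. It was 7.68, 7.26, 7.19 and 7.59 in Fgf10+/- normoxia, against 7.26, 6.81, 7.78 and 7.01 in wild-type normoxia. The Marchf1 feature thus lay above 10 on every hyperoxia array and below 8 on every normoxia array. It rose by 3.83 in Fgf10+/- (limma adjusted p = 0.00257) and by 4.22 in wild type (limma adjusted p = 3.4e-05). This value belongs to 1 of 11 Marchf1 features; the other 10 differed by -0.73 to 1.50 in Fgf10+/- and by -0.31 to 0.57 in wild type, and none of them averaged over 5.29. Whether the annotation of the 1 feature is right could not be checked, so its rise is that of a feature annotated as Marchf1. With the mean of all 11 features Marchf1 differed by 0.39 in Fgf10+/- and by 0.48 in wild type, and neither passed. Without the 4 libraries high in thymocyte markers no pathway gene passed in Fgf10+/-. Ctsd, Ctsl and Ctsb, endosomal cathepsins, differed by -0.23 to 0.37 with hyperoxia in the 2 genotypes, without passing. The second Ctsd feature, which averaged 7.92, differed by 0.42 in Fgf10+/- and by 0.57 in wild type.

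Ctss, cathepsin S, which cuts the invariant chain in antigen-presenting leukocytes, was singled out after its values had been seen. It averaged 8.03 ± 0.22 in Fgf10+/- hyperoxia and 10.03 ± 0.75 in wild-type hyperoxia (SD, n = 2 and 6), and 7.34 ± 0.39 in Fgf10+/- normoxia and 9.14 ± 0.85 in wild-type normoxia (SD, n = 4 each). The genotype difference did not pass in hyperoxia (limma adjusted p = 0.746) or in normoxia, where it was -1.80 (limma adjusted p = 0.371), and in both conditions the Fgf10+/- samples lay below all wild-type samples, as for 3.31% and 2.04% of all genes. Marco and Mpeg1, picked from the 8 macrophage markers, had genotype differences of -1.63 and -1.59 in hyperoxia and of -2.08 and -1.17 in normoxia, none past the threshold. Of the 8 markers 7 were negative in hyperoxia and 6 in normoxia. Csf1r went the other way, by 0.45 in hyperoxia and 0.23 in normoxia. The second, dim Mpeg1 feature differed by -1.16 in hyperoxia and by 0.11 in normoxia. The part of macrophages in the Ctss values was not tested.

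Among 10 factors and coactivators of class II promoters, Crebbp, a histone acetyltransferase, rose in wild-type hyperoxia by 1.08 (limma adjusted p = 0.0441). It averaged 10.81 ± 0.50 in wild-type hyperoxia (SD, n = 6) and 9.73 ± 0.46 in wild-type normoxia (SD, n = 4), and its call was lost in 7 of 10 fits that left out 1 sample. The other 9 did not pass in either genotype, among them Rfx5, the DNA-binding subunit of the X box complex, whose 4.09 ± 0.55 in wild-type hyperoxia (SD, n = 6) and 3.93 ± 0.71 in wild-type normoxia (SD, n = 4) were dim. Nfyc and Nfyb, subunits of NF-Y, differed by 0.27 and -0.28 in Fgf10+/- and by 0.27 and -0.03 in wild type. Nfya, the third NF-Y subunit, named after its values had been seen, differed by 1.27 in Fgf10+/- without passing (limma adjusted p = 0.12) and by 0.30 in wild type, and its Fgf10+/- samples did not overlap between hyperoxia and normoxia.

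Interferon gamma is the main inducer of Ciita in most cells. Of 9 measured genes of its axis 5 had a negative difference with hyperoxia in Fgf10+/- and all 9 in wild type, and none passed the limma threshold. An unadjusted p under 0.05 was found for 1 of the 9 in Fgf10+/-, as for 16.7% of all genes, and for 3 in wild type, as for 18.2%. Of all genes 53.4% were negative in Fgf10+/- and 58.3% in wild type. Irf1, an interferon-induced transcription factor that acts on Ciita, differed by -0.65 in Fgf10+/- (limma adjusted p = 0.21) and by -0.43 in wild type (limma adjusted p = 0.246). Ifngr1, the ligand-binding receptor chain, differed by -0.45 in Fgf10+/- and -0.50 in wild type, and Jak1, its kinase, by -0.41 and -0.31. Ifng itself was low, at 4.84 ± 0.48 in Fgf10+/- hyperoxia, 5.37 ± 0.65 in wild-type hyperoxia, 4.81 ± 0.57 in Fgf10+/- normoxia and 5.67 ± 1.44 in wild-type normoxia (SD, n = 2, 6, 4 and 4).

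None of 6 genes for costimulatory and coinhibitory ligands and none of 5 genes for the surface partners of Cd74 passed in any comparison. Cd80, a ligand of CD28, differed with hyperoxia by 0.53 in Fgf10+/- and by 1.12 in wild type, Cd40 by 1.44 and 0.63, and Icosl, the ICOS ligand, by 1.42 and 0.23 (limma adjusted p = 0.0683 in Fgf10+/-). Cd80 was 8.53 in Fgf10+/- normoxia replicate 4, against 4.94, 4.97 and 5.17 in replicates 1, 2 and 3, which bears on its Fgf10+/- difference. The second, dim Cd80 feature differed by -0.60 in Fgf10+/- and by -0.39 in wild type. Mif, the cytokine that binds Cd74, differed by -0.58 in Fgf10+/- and -0.44 in wild type, and its relative Ddt by -0.15 and -0.39. Cd44, the signalling partner of Cd74, differed by 0.42 in Fgf10+/- and 0.59 in wild type on 1 of its 4 features. The other 3 differed by -0.80 to -0.03 in Fgf10+/- and by -0.44 to -0.04 in wild type, and the brightest of them averaged 7.15.

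**Figure D5:**
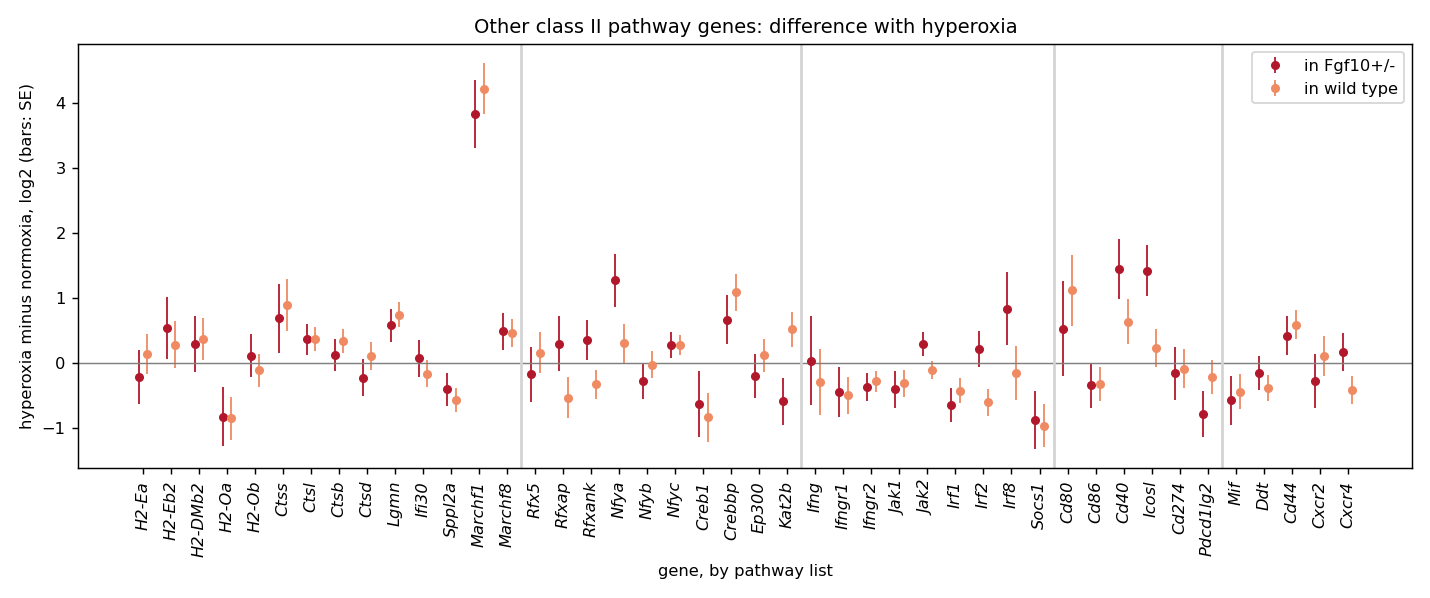
Hyperoxia minus normoxia in log2 units, with bars for the SE, for the 44 other pathway genes in Fgf10+/- and in wild type, ordered by list (other chains, proteases and turnover; promoter factors; interferon gamma axis; costimulation; Cd74 partners, parted by grey lines). Marchf1 stands out at 3.83 in Fgf10+/- and 4.22 in wild type, and the other genes lie between -0.97 and 1.44.

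The 7 genes were not equally alike among themselves. Over the 16 arrays H2-Ab1 and H2-Eb1 had r = 0.95, H2-DMb1 and Cd74 0.93, and H2-Ab1 and Cd74 0.92. Ciita, under the median of all values on 13 of the 16 arrays, had a negative r with each of the other 6, from -0.29 to -0.59. Within groups, as deviations from the group means, r was 0.81 for H2-Ab1 with H2-Eb1, 0.77 for H2-Aa with H2-DMa and 0.61 for Cd74 with H2-DMb1, and 0.19 for H2-Ab1 with Cd74. These correlations are a description, since the arrays share their groups and their normalization.

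Likeness to the class II genes was measured as r over the 16 arrays with the mean of the 7 scaled levels. The 10 most alike genes outside the lists were Fryl (0.90), Ift22 (0.89), Iqgap3 (0.88), Lbp, Slc35c1, Colec11, Ndrg1, Dlk1, Sec61a1 and Cfb, which had the lowest r of these, 0.86. Within groups their r was 0.01 for Iqgap3 to 0.59 for Lbp. Lbp, the lipopolysaccharide-binding protein, averaged 7.32 in Fgf10+/- hyperoxia, 7.80 in wild-type hyperoxia, 9.29 in Fgf10+/- normoxia and 8.55 in wild-type normoxia. Cfb, complement factor B, whose gene lies in the same gene complex as the class II genes, averaged 6.73, 7.75, 11.11 and 9.28 in the same groups. Both had the same order of group means as H2-Ab1.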

How the data were processed

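RNA of 16 AT2 samples was labelled with Cy3 and hybridised to single-colour Agilent arrays, per the labels. The authors deposited 1 value per feature and sample, read here as log2 intensity from the range of -0.4 to 15.98. No source used here gives the log base, the background correction or the software. The sorted values of any 2 arrays differed by at most 0.2, so the deposited values already shared 1 distribution. Of 62976 features, 65 with a missing value were left out, 31465 carried 1 symbol and 31511 listed no gene. RefSeq names of GRCm38.p6 replaced older symbols, which gave 31439 complete features of 20725 genes. No detection flags came with the values, so dim means below the median of all values, 4.34, and slides or scan days could not be tested. The number of arrays limits the precision.

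Group means were fitted with limma 3.58.1 in R 4.3.3 on all 16 samples without a filter, with p-values adjusted by Benjamini-Hochberg over 20725 genes and a threshold of 0.05. The fit was tested on simulated data. Named genes were the 7 members, the called genes of each pathway list or its 3 brightest where none was called, the markers Ptprc, Cd79a and Itgax, the 10 genes most alike, and a few said to be chosen after their values were seen. The members, lists and markers were chosen with earlier results of these data known. Alternatives changed the centring, filter, floor, feature choice, samples in the fit, prior, array weights, replicate block, covariates and samples left out.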

Additional observations from a re-analysis of the deposited data

Results flagged for a closer look

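In wild-type normoxia, replicate 1 stood apart for 2 genes. H2-Eb1 was 8.56 there, against 9.69 to 9.79 in the other 3 samples of the group, and Ciita was 2.64, against 3.65 to 3.69. In both the gap to the nearest sample, divided by the range of the group, was above Dixon's critical value of 0.829. Of 30 groups of a gene or marker tested this way 2 were found, and chance alone gives about 1 in 20. The Ciita values are dim. Without this sample the hyperoxia difference of H2-Eb1 in wild type was -1.15, against -0.85 with it. On the same array Ptprc was 7.72 and Cd79a 5.99, the highest levels of the 16 arrays for both markers, and their part in the low H2-Eb1 value was not tested.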

How the results depend on the processing

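The hyperoxia differences of H2-Aa, H2-Ab1, H2-Eb1, Cd74, H2-DMa and H2-DMb1 were negative in 20 of 20 alternatives in Fgf10+/- and in 24 of 24 in wild type, and the dim Ciita was positive in 19 of 19 and 23 of 23 but close to 0 with values floored at the median of all values, at 0.06 and 0.08, and otherwise up to 1.08 and 0.96. H2-Ab1 ranged from -2.84 to -2.43 in Fgf10+/- and from -1.36 to -1.07 in wild type, and Cd74 from -3.73 to -2.87 and from -1.92 to -1.39. The median over the 7 genes ranged from -2.05 to -1.66 in Fgf10+/- and from -1.15 to -0.75 in wild type when single samples were left out. The members past the threshold numbered 2 to 5 in each genotype over all alternatives. No member passed between genotypes or in the interaction under any alternative.

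Pathway genes called with hyperoxia in Fgf10+/-, 1 as reported, numbered 2 with only genes whose mean is over the median of all values, 2 with a trended and robust prior, 2 with Ptprc as a covariate, 0 with each gene's features averaged and 0 without the 4 libraries, and 1 to 2 when single samples were left out, with 2 without Fgf10+/- normoxia replicate 3. In wild type the count, 3 as reported, was 1 with only the compared groups in the fit, with Itgax or the thymocyte mean as a covariate, and when the 4 thymocyte-rich libraries were dropped. They numbered 1 to 3 when single samples were left out, with 1 without wild-type normoxia replicate 2 or 4 or wild-type hyperoxia replicate 1, 2, 5 or 6. Fewer samples or genes enter some of these fits, and the cause was not tested otherwise. Between genotypes and in the interaction the count was 0 throughout.

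The replicate number of the titles as a block gave 1 pathway gene in wild type, against 3, and 216 of all genes against 649. Same-numbered samples had correlations of their deviations from -0.16 to 0.24. Differently numbered samples were not set beside them, so whether same-numbered samples share more than a number was not tested. All genes called in wild type ranged from 216 to 1176, the highest with values floored at the median. In Fgf10+/- they ranged from 14, without the 4 libraries, to 816, with only the brighter genes, against 507, and numbered 90 without Fgf10+/- hyperoxia replicate 1 and 108 without replicate 2. Centring on the medians of the gene features, chosen after seeing the data, moved the median of all genes in wild type to 0.03, against -0.08, and that of the members to -0.74. None of the 42 marker relations passed as deviations from genotype means or without the 2 farthest samples, with 6 and 1 at an unadjusted p under 0.05. No floor for Ciita can be set without detection flags.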

Other observations

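All 6 measured markers of endothelial cells had a positive hyperoxia difference in both genotypes. Cldn5, a tight junction gene, averaged 11.81 ± 0.87 in Fgf10+/- hyperoxia (SD, n = 2) and 9.73 ± 0.39 in Fgf10+/- normoxia (SD, n = 4), and rose by 2.08 (limma adjusted p = 0.0174); it was the 1 gene of the list past the threshold, with 0 in wild type and 2 at an unadjusted p under 0.05 there. The list mean was 7.25 and 8.64 in Fgf10+/- hyperoxia, against 6.56 to 7.02 in Fgf10+/- normoxia, and 7.42 to 8.68 in wild-type hyperoxia, against 7.38 to 7.85 in wild-type normoxia. The part of this shift in the class II levels was not tested.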
